A study of Mus musculus with 2 samples.

Results

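The genes described here are 41 receptors, adaptors and kinases of innate sensing, chosen by name and followed in mouse splenic red pulp macrophages. Pattern recognition receptors are the germline-encoded sensors with which macrophages detect microbes and damaged cells. Toll-like receptors sit in the plasma membrane or in endosomes and signal through TIR-domain adaptors and IRAK kinases to the ubiquitin ligase TRAF6. Cytosolic RNA and DNA sensors signal through the mitochondrial adaptor MAVS and through STING to the kinases TBK1 and IKKε, NOD-like receptors through RIPK2 or through inflammasomes that activate caspase-1, and C-type lectin receptors through CARD9. Red pulp macrophages, the resident phagocytes of the splenic red pulp, meet blood-borne microbes and aged red cells.

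An array probe was assigned to a gene when the probe's accession belonged to it in RefSeq, was no control and had no outlier mark on either array, which gave 46 probes for 40 of the 41 genes out of 20642 genes named in all. Clec7a was not analysed here. The samples were F4/80+ CD11b-low cells sorted from spleens of WT mice and of SIRPα-KO mice, which lack an inhibitory surface receptor that myeloid cells carry. Cells of 5 mice were pooled per genotype, and 1 array was hybridised for each pool; the labels give no strain, age, allele or treatment of the mice, and red blood cells were lysed and globin transcripts removed from both. With 1 array of 1 pool for each genotype no test was possible and no difference has a replicate check. The rule for calling a gene higher or lower was a difference of 2-fold or more between the arrays. Differences are log2 values of the array labelled SIRPα-KO minus those of the WT array, after each array was scaled to its 75th percentile. The error after ± is the scanner software's signal error, which covers spot measurement only. Signals are printed as the scanner software gave them, before scaling.

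The promoters of the 4 genes called lower are printed first, because the results turn on these genes and because the first pair, the C-type lectin genes Clec4d and Clec4e, are neighbours on the chromosome and were both lower. Each is the 250 bases before the RefSeq gene start in build GRCm38.p6, 5′ to 3′ on the strand of the gene: Clec4d on the plus strand at chr6:123261857-123262106, Clec4e on the minus strand at chr6:123289872-123290121, Tlr6 on the minus strand at chr5:64959167-64959416 (the first of its 2 listed starts) and Traf6 on the plus strand at chr2:101678170-101678419. Capitals mark letters that match a searched motif.
Clec4d: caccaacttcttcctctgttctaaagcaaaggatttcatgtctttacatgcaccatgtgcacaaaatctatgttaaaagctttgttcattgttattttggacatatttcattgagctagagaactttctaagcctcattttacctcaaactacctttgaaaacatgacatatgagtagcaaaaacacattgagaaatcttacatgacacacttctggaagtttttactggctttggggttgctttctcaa
Clec4e: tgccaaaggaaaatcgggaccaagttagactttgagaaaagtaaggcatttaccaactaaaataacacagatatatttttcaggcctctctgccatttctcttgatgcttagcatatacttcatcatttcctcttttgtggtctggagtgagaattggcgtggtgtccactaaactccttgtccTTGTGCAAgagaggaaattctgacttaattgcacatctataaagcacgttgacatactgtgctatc
Tlr6: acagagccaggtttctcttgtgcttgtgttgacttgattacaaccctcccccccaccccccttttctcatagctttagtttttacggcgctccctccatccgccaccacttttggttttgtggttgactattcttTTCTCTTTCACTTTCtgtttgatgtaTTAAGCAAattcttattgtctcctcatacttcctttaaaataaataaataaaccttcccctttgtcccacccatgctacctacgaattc
Traf6: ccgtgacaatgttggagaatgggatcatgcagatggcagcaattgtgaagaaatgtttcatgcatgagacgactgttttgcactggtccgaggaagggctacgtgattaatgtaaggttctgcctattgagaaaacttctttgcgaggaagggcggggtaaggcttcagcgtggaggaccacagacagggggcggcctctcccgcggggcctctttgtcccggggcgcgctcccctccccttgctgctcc
The motifs were searched on both strands as GGNNNTTCC (NF-κB-like), GAAANNGAA (interferon-response-like), TTNNGCAA (C/EBP-like) and GAGGAAGT (PU.1-like). Longer forms of the NF-κB-like and interferon-response-like motifs had been searched before, and which genes matched depended on the form. The capitals in Clec4e mark TTNNGCAA, which starts 66 bases before the gene start. In Tlr6 they mark 2 overlapping matches to GAAANNGAA, starting 115 and 109 bases before the start, and TTNNGCAA at 89 bases. The Clec4d and Traf6 windows held none of the 4 motifs. Of 32851 promoter windows of this length, 15.7% held GGNNNTTCC, 7.13% GAAANNGAA, 9.56% TTNNGCAA and 2.44% GAGGAAGT. RefSeq promoters were matched for 33 of the 41 genes, with 41 windows in all, of which 11, 5, 6 and 4 held the respective motif. The second Tlr6 window, not printed, held GGNNNTTCC at 98 bases. A match is a description of the letters and not a binding site. Cd14, Ly96, Ripk2, Ticam2, Tlr4, Tlr7, Tmem173 and Unc93b1 had no entry.

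Of the 40 genes with a probe, 35 were well above background on at least 1 array and are called measured below. On the array labelled SIRPα-KO, 4 of them (Clec4d, Traf6, Clec4e and Tlr6) were called lower and 2 (Tlr13 and Irak3) higher. The remaining 29 measured genes differed by less than 2-fold. The 4 lower genes are 11.4% of those measured, against 5.50% of all 15827 measured genes, and the 2 higher genes are 5.71%, against 3.10%. The median of the 35 differences was -0.17, beside -0.09 over all measured genes, and 21 of the 35 lay below 0, beside 58.1% of all genes. By its median and by its share below 0 the set lay close to all genes on the array. By the spot error in place of the 2-fold rule, 7 of the 35 were lower by more than 2 errors (20.0%, beside 17.8% of all genes) and 3 were higher (8.57%, beside 14.3%). The lower genes were Clec4d, Clec4e, Traf6, Tlr6, Tlr5, Cd14 and Ly96, and the higher ones Tlr13, Irak3 and Mavs.

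**Figure D1:**
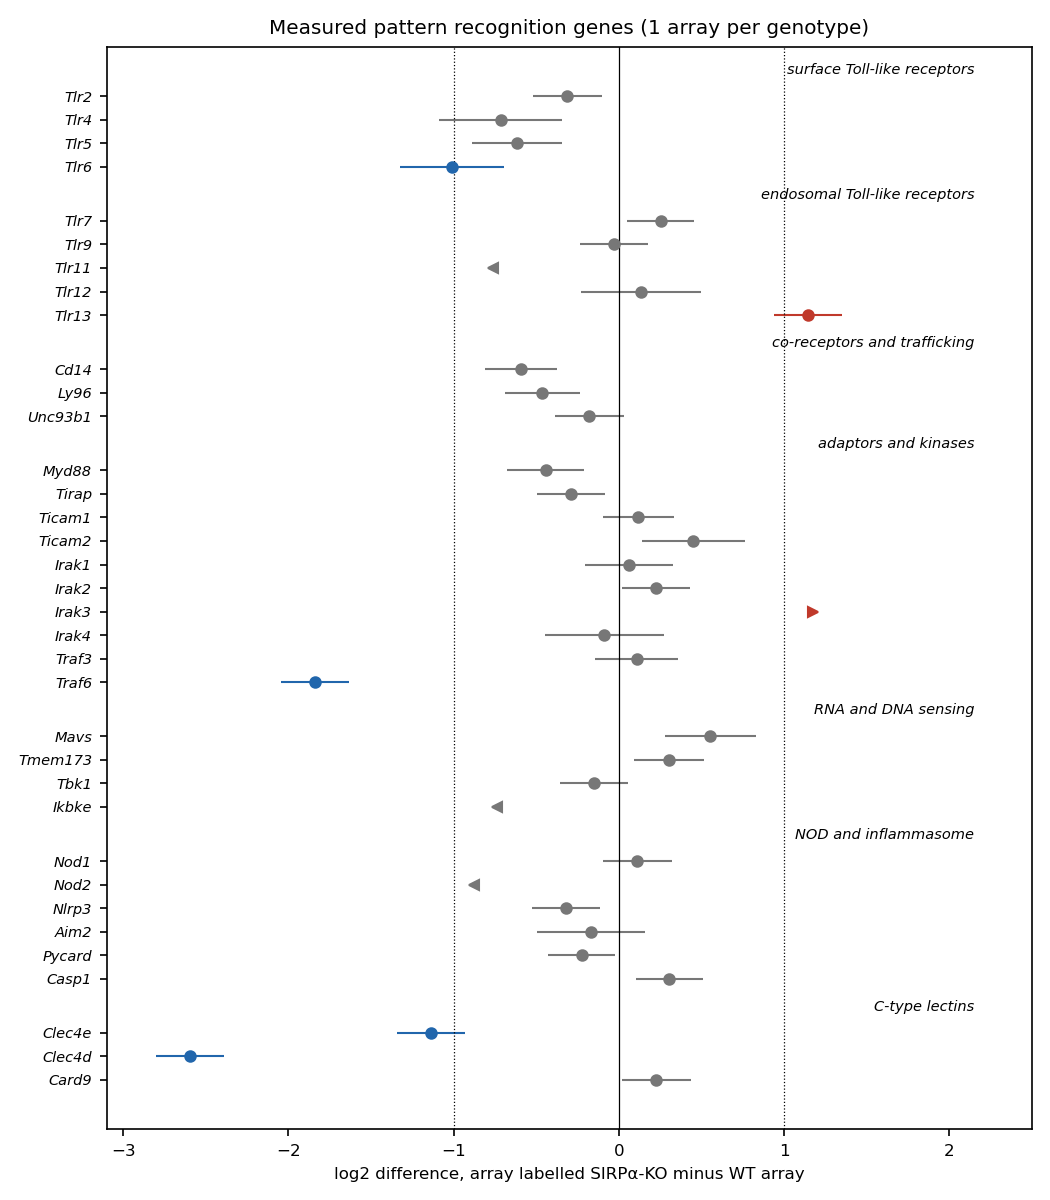
Log2 difference (array labelled SIRPα-KO minus WT array) of the 35 measured genes, grouped by branch. Bars are the spot error of both arrays, triangles are lower bounds where 1 array was not well above background, blue and red mark genes at least 2-fold lower or higher, and dotted lines stand at a 2-fold difference; Clec4d at -2.60 and Traf6 at -1.84 lie farthest from 0.

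The targeted gene and the labelled cell type were checked on the same arrays. Sirpa, at its 1 named probe, read 795 on the WT array against 1006 on the other, a difference of 0.51 ± 0.20, so the probe did not bear out the label; the sources used here do not say where it lies relative to the deleted part. All directions below follow the labels. The red pulp macrophage markers Adgre1 (F4/80), Csf1r and Spic were well above background on both arrays, with differences of 0.78, 0.19 and 0.17; the second Adgre1 probe, at 737 and 474, had the opposite sign (-0.47). Of 15 such markers 13 were measured, with Mertk not well above background and no named probe for Cd68. Cd5l (1.45) and C1qc (1.11) were at least 2-fold higher and Hpgd (-1.10) lower. C1qa (-0.76, a bound) and C1qb (-0.34) lay opposite to C1qc. The median of the 13 was -0.15, with 7 below 0 and 6 above. On the WT array 71.5% of probes were well above background, and on the array labelled SIRPα-KO 65.3%. The split of all genes at least 2-fold apart depended on scaling: 36.0% of them were higher as reported, and this share was 47.1% in the values of the authors, 46.8% with quantile and 45.1% with cyclic loess normalization, 20.3% with no scaling and 14.98% after normexp, a model-based background correction. Without scaling the median of all genes moved by -0.17. The split also differed with brightness: among the 7914 brighter measured genes 8.24% were called lower and 2.65% higher, and among the 7913 dimmer ones 2.77% and 3.54%. Of the pattern recognition genes, 18 lay in the brighter set, with 3 lower and 1 higher, and 17 in the dimmer, with 1 lower and 1 higher.

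Toll-like receptors of the plasma membrane recognise bacterial lipids and proteins, and the 4 that were measured all lay below 0, with a median of -0.67. Tlr6, which pairs with TLR2 to bind diacylated lipopeptides, gave signals of 26.7 (WT) and 11.8 (array labelled SIRPα-KO), a value 2.01-fold lower (-1.01 ± 0.32). It lay at the limit of the 2-fold rule and was under it after median scaling (-0.9996), with quantile (-0.96) or cyclic loess (-0.92) normalization, in the authors' values (-0.96) and after normexp (-0.23). Both signals were low, against 7.92 and 8.37 for the dimmest probe well above background on each array.

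Tlr4, the lipopolysaccharide receptor, went from 18.4 on the WT array to 9.98 on the other (-0.72 ± 0.37), and Tlr5, the flagellin receptor, from 28.5 to 16.5 (-0.62 ± 0.27). The Tlr4 signal of 9.98 lay near the 8.37 of the dimmest probe well above background on that array. After normexp the Tlr4 and Tlr5 differences were -0.035 and -0.075. Tlr2, the receptor for bacterial lipoproteins, was read from 10 spots on each array. Its WT spots lay between 87.1 and 126.9 with a median of 115.6, and those of the array labelled SIRPα-KO between 68.9 and 90.1 with a median of 81.3. The ranges of spots overlapped, and the difference was -0.31 ± 0.21. The fifth receptor, Tlr1, was not well above background on either array. The 4 differences kept their sign under all 6 other scalings and background corrections tried, with a median of -0.14 after normexp.

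The genes of the proteins that present lipopolysaccharide to TLR4 lay on the same side. Cd14, the co-receptor that hands lipopolysaccharide over, gave 71.6 (WT) and 42.3 on the other array, a 1.51-fold difference (-0.59 ± 0.22). Ly96, which encodes MD-2, the subunit of TLR4 that holds lipid A, went from 54.2 to 35.0 (-0.46 ± 0.23). Both differences exceeded 2 times their error and neither reached 2-fold. Ly86, which encodes the related protein MD-1 and was named here after its value was seen, differed by -0.41 ± 0.20. Cd14, Ly96 and Tlr4 stayed below 0 under every scaling tried, but after normexp they shrank to -0.24, -0.11 and -0.035. In bulk cells, fewer cells of a type and less RNA per cell cannot be told apart, which holds for each value here.

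Receptors of the endosome, which sense nucleic acids and profilin, did not lie to 1 side: 3 of 5 measured receptors lay above 0 and 2 below, with a median of 0.13 that turned to -0.04 without scaling. Tlr13, the mouse receptor for bacterial ribosomal RNA, stood at 506 (WT) and 996 on the other array, 2.21-fold higher (1.15 ± 0.20). It lay just under the 2-fold rule without scaling (0.98) and after normexp (0.94), and ranged up to 1.37 in the authors' values. Tlr7, the receptor for single-stranded RNA, was bright on both arrays, at 23643 and 25074 (0.25 ± 0.20); its further, dim probe, at 16.8 and 11.5, differed by -0.38. Tlr9, the receptor for unmethylated CpG DNA, went from 2284 to 1992 (-0.03 ± 0.20) and took either sign over the scalings. Tlr7 at its brighter probe ranged from 0.08 without scaling to 0.50 with cyclic loess, so neither gene neared 2-fold.

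Of the profilin receptors, Tlr12 differed by 0.13 ± 0.36, with signals of 12.1 and 11.8, and was below 0 without scaling. Tlr11 stood at 17.1 on the WT array and was not well above background on the other, which gives at least 1.69-fold lower (-0.76, and -0.065 after normexp). Tlr3, the receptor for double-stranded RNA, and Tlr8 were not well above background on either array. Unc93b1, which encodes the chaperone that carries these receptors to endosomes, differed by -0.18 ± 0.21, with signals of 136 and 107.

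Cell types that carry these receptors in the spleen were followed through their markers. All 8 markers of plasmacytoid dendritic cells, which use TLR7 and TLR9, were measured, and none was at least 2-fold apart. Their summed signal was 81900 (WT) and 114862 on the other array, most of it from 1 probe of Siglech (79647 and 113603, difference 0.68), whose other measured probe differed by 0.03. By contrast 5 of the 8 markers lay below 0, with a median of -0.18 and Ccr9 lowest at -0.81. Of 7 B cell markers 6 were measured, none at least 2-fold apart, with summed signals of 1860 and 2421 and a median difference of 0.32. Cd22 (0.69), Cd79b (0.66) and Ms4a1 (0.43) were higher by more than 2 errors, Cd79a lay at -0.06, and Blk was not well above background. Of 8 markers of conventional dendritic cells 7 were measured, with summed signals of 1515 and 707. Most of each sum came from Flt3 (1217 and 516), which was 2.10-fold lower, and 4.76-fold lower at its second probe. The median of the 7 was -0.41, with 6 below 0 and Xcr1 above it at 0.41 ± 0.36. The part of these cells in the values of Tlr7, Tlr9, Tlr11 and Tlr13 was not tested.

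**Figure D2:**
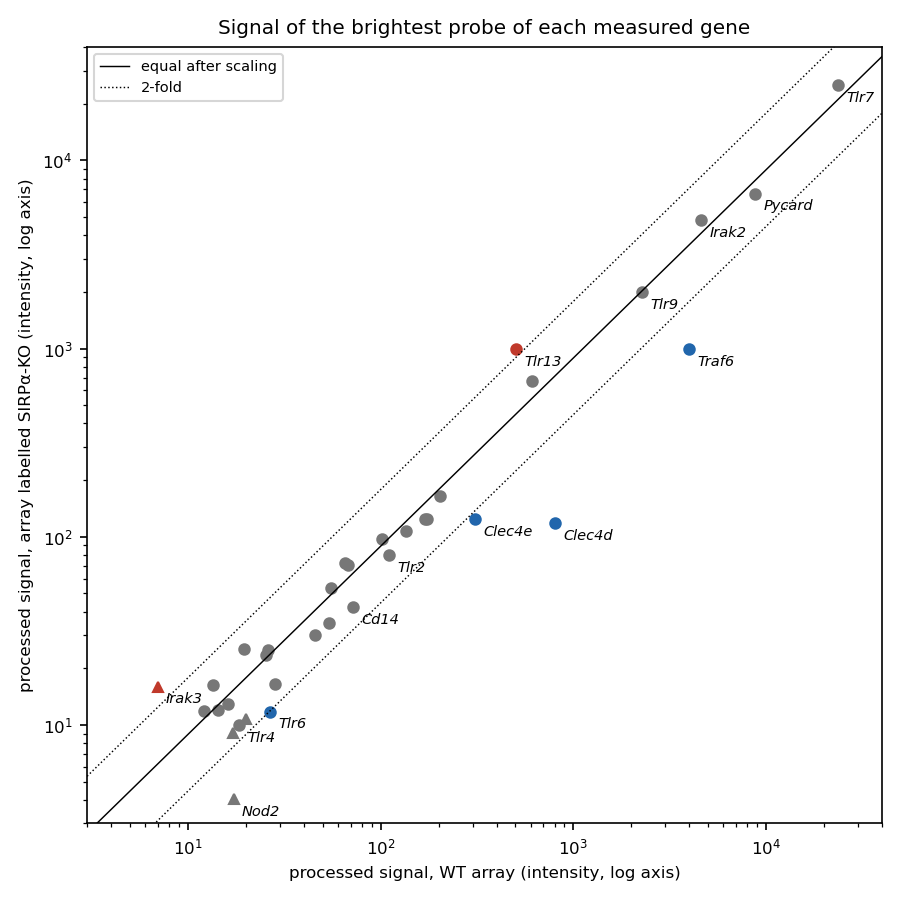
Processed signal of the brightest probe of each of the 35 measured genes on the WT array (horizontal, log axis) and the array labelled SIRPα-KO (vertical, log axis). The solid line marks equal values after scaling, dotted lines 2-fold, and triangles probes not well above background on 1 array; Tlr7, Pycard and Irak2 lie near the line, and Traf6, Clec4d and Clec4e below it.

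The adaptors and kinases downstream of Toll-like receptors were under 2-fold apart, except for 2 genes. Traf6, which encodes the ubiquitin ligase on which the MyD88 pathway converges, gave 3997 (WT) and 993 on the other array, 3.58-fold lower (-1.84 ± 0.20). Its difference ranged from -2.01 to -1.58 over the scalings and stayed past 2-fold in all of them. Irak3 encodes IRAK-M, an inhibitory member of the kinase family. It was not well above background on the WT array, at a signal of 6.97, and stood at 15.9 on the other, which gives at least 2.26-fold higher; the bound was 0.23 on the log2 scale after normexp. Each of these genes had 1 probe on 1 spot.

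Myd88, the adaptor of all Toll-like receptors but TLR3, was read from 8 spots. Its WT spots lay between 41.7 and 51.8 with a median of 45.0, and those of the array labelled SIRPα-KO between 27.5 and 33.9 with a median of 29.2. The spots of the arrays did not overlap, before or after scaling, and the difference was -0.44 ± 0.23, under 2-fold. Spots of 1 array share 1 pool and are not replicates of a genotype. Tirap, which brings MyD88 to TLR2 and TLR4, differed by -0.29 ± 0.21. The adaptors of the TRIF branch lay above 0, Ticam1, which encodes TRIF, at 0.12 ± 0.22 and Ticam2, its bridge to TLR4, at 0.45 ± 0.31; Ticam1 was below 0 without scaling.

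The other IRAK kinases and Traf3 stayed under 2-fold. Irak2, a kinase that sustains signalling, had signals of 4615 and 4801 (0.23 ± 0.20, and up to 0.46 in the authors' values), and its second probe was not well above background. Irak1 differed by 0.06 ± 0.27 at its brightest probe and by -0.25 at a further one. The values of Irak4, the first kinase of the complex, and Traf3, an adaptor towards the interferon branch, were -0.09 ± 0.36 and 0.11 ± 0.25. Irak1, Irak4 and Traf3 took either sign over the scalings.

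**Figure D3:**
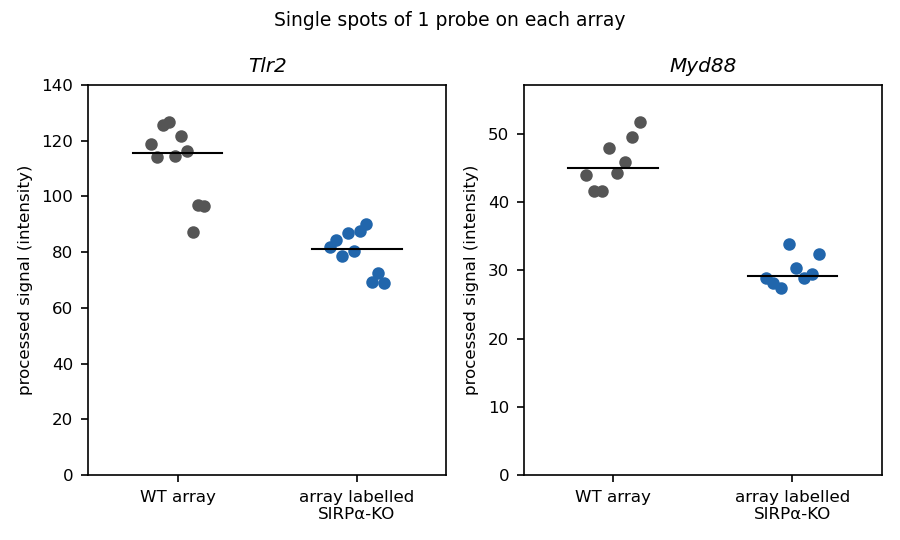
Signals of the single spots of the Tlr2 probe (10 spots per array) and the Myd88 probe (8 spots per array), with lines at the medians. The Tlr2 spots of the arrays overlap between 87.1 and 90.1, and the Myd88 spots do not overlap.

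The adaptors of cytosolic RNA and DNA sensing stayed under 2-fold. Mavs, the mitochondrial adaptor of the RIG-I-like receptors, went from 19.5 on the WT array to 25.4 on the other (0.55 ± 0.28), over 2 times its error and above 0 under all scalings. Tmem173, which encodes STING, the adaptor of cytosolic DNA sensing, went from 65.7 to 72.1 (0.30 ± 0.21). Tbk1, the kinase both adaptors engage, differed by -0.15 ± 0.21. The related kinase gene Ikbke had a WT signal of 20.1 and was not well above background on the other array, at least 1.67-fold lower (-0.74, and -0.055 after normexp). So 2 of the 4 genes lay above 0 and 2 below.

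Among NOD-like receptors and inflammasome genes no member reached 2-fold. Pycard, which encodes the inflammasome adaptor ASC, had signals of 8750 and 6661 (-0.23 ± 0.20), and Casp1, the protease it activates, 613 and 674 (0.31 ± 0.20). In the authors' values Pycard lay at 0.02, on the other side of 0, and Casp1 at 0.53. Nlrp3, the sensor of membrane damage, differed by -0.32 ± 0.21 at the brighter probe and by -0.14 at the other. The DNA sensor gene Aim2 differed by -0.17 ± 0.33 and the peptidoglycan receptor gene Nod1 by 0.11 ± 0.21, and both took either sign over the scalings. Nod2, the receptor for muramyl dipeptide, had a WT signal of 17.3 and no signal well above background on the other array, at least 1.84-fold lower. Its bound passed 2-fold without scaling (-1.05) and was -0.16 after normexp. Ripk2, the kinase of both NOD receptors, and Nlrc4 were not well above background on either array.

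The C-type lectins held the largest difference of the set. Clec4d, which encodes the mycobacterial glycolipid receptor MCL, gave 806 on the WT array and 119 on the one labelled SIRPα-KO, 6.05-fold lower (-2.60 ± 0.21). Clec4e, which encodes its partner receptor Mincle, had 308 and 124, 2.20-fold lower (-1.14 ± 0.21). Card9, the adaptor through which they signal, differed by 0.23 ± 0.21, at 68.1 and 70.9. The Clec4d difference ranged from -2.77 to -2.13 over the scalings, and that of Clec4e from -1.31 to -0.96, the last after normexp and inside 2-fold.

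Neutrophils and monocytes carry both lectins. Of 9 neutrophil markers 7 were measured, and Ngp was not well above background. The summed signal was 261 (WT) and 180 on the other array, with S100a8 2.35-fold lower (-1.23). S100a8 was the only 1 of the 7 to differ by more than 2 errors. The median of the 7 was -0.19, with 5 below 0, and Mmp8 lay at 0.46 ± 0.34. Of 7 monocyte markers 5 were measured, Ccr2 was not well above background, and the summed signal was 22822 and 15018, most of it from Ms4a4c. Ly6g and Ly6c2 had no named probe. The part of these cells in the lectin values was not tested. Among platelet markers, Gp1ba (1.44) was at least 2-fold higher, at signals of 24.6 (WT) and 59.5 on the other array. Of the 5 platelet markers 3 lay above 0 and 2 below, with Gp9 at -0.52. Their summed signal was 13273.5 (WT) and 13170.8 on the other array.

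Clec4d and Clec4e are adjacent protein-coding genes on chromosome 6, and the 5 protein-coding genes on each side were read as a local comparison chosen after the values were seen. Of these 10 genes 5 were measured, and none was at least 2-fold lower. Clec4a2, which encodes the inhibitory receptor DCIR, was 3.38-fold higher, from 94.4 to 284 (1.76 ± 0.21). Clec4n, which encodes the fungal mannan receptor Dectin-2 and lies next to Clec4d, differed by 0.19 ± 0.20. Clec4b1 differed by -0.09 ± 0.23. Genes of 1 lectin cluster therefore differed in opposite directions; the specificity of these probes within the family was not checked here.

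**Figure D4:**
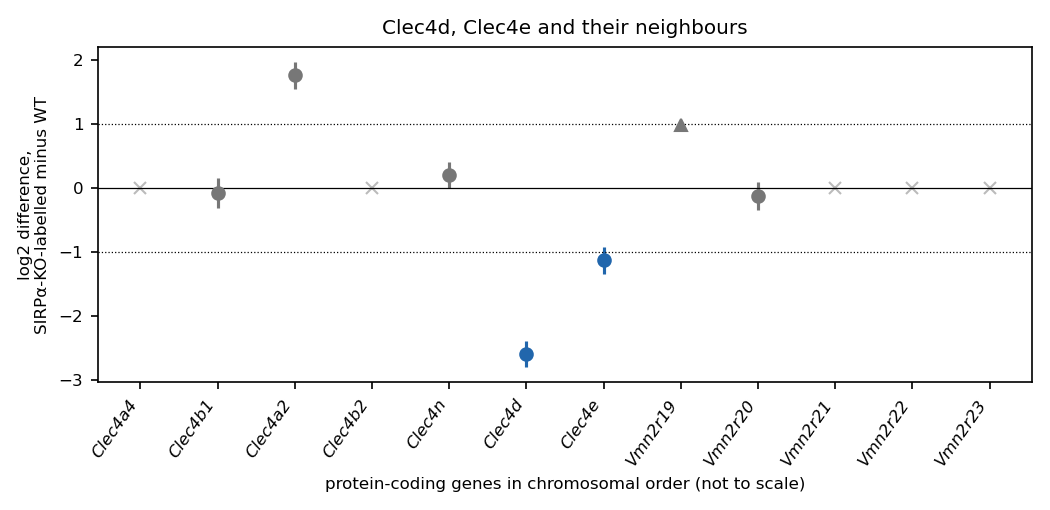
Log2 difference of Clec4d, Clec4e (blue) and the 5 protein-coding genes on each side, in chromosomal order. Bars are spot errors, the triangle is a lower bound, and crosses at 0 mark genes not measured, which have no value; Clec4a2 at 1.76 lies opposite to Clec4d at -2.60.

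The other genes of these pathways were followed with a list of 73 partners, of which 58 were measured. Of these, 4 were called lower and 2 higher, 6.90% and 3.45%, near the 5.50% and 3.10% of all genes. Their median was -0.20, and 39 of the 58 lay below 0. Peli1, a ubiquitin ligase of the IRAK complex, went from 198 on the WT array to 59.7 (2.96-fold lower), and Malt1, the paracaspase downstream of CARD9, from 566 to 215 (2.35-fold lower). Trex1, an exonuclease that removes cytosolic DNA, went from 598 to 250 (2.13-fold lower), while Pik3ap1, an adaptor towards PI3-kinase, was at least 2.83-fold lower, with no signal well above background on the second array. Higher were Clec4a2 and Tab2, an adaptor that links TRAF6 to the kinase TAK1, which went from 125 to 294 (2.64-fold). Over the scalings and background corrections all 6 kept their direction, and Trex1 (-0.93 at its least) and Pik3ap1 (-0.22 at its least) came under 2-fold in at least 1.

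The partners in RNA and DNA sensing had a median of -0.35, with 13 of 15 below 0 and Trex1 past 2-fold. This median ranged from -0.52 to -0.25 over the scalings. The cytosolic receptors themselves, named after their values were seen, differed by -0.33 for Ddx58 (RIG-I), -0.35 for Ifih1 (MDA5) and -0.25 for Mb21d1 (cGAS), each under 2-fold. The partner medians were -0.17 for Toll-like receptors, 0.07 for NOD and inflammasome genes and -0.28 for C-type lectins. No difference between these lists was tested.

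Probe choice and scaling set limits on the single values. All 6 genes at least 2-fold apart had 1 measured probe. Of 241 genes on the arrays with a second probe and a 2-fold difference at the brightest, 142 (58.9%) had the same sign at the next probe and 22 were also at least 2-fold apart in that direction. Only Tlr7, Irak1 and Nlrp3 had more than 1 measured probe here, and in Tlr7 and Irak1 the signs differed.

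**Figure D5:**
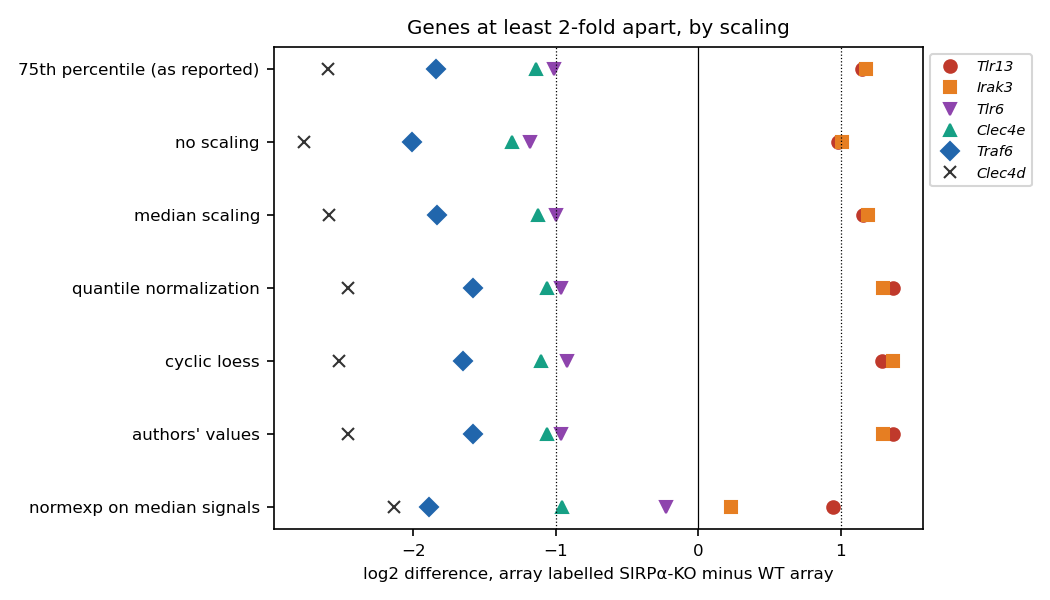
Log2 difference (array labelled SIRPα-KO minus WT array) of the 6 genes at least 2-fold apart, under 7 scalings or background corrections. Clec4d and Traf6 lie beyond the dotted 2-fold lines in all 7, Clec4e in all but normexp, and Tlr6, Tlr13 and Irak3 cross the lines in at least 1.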

How the data were processed

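Per the file headers, the deposited scanner tables were made with Agilent Feature Extraction 11.0.1.1 on mouse design 26655 (build mm9) and hold intensity on a linear scale; the processed signal is background-subtracted and spatially detrended. A deposited table of the authors holds log2 values of the same arrays; they rise with the scanner signal and have a median of 4.56 on each array, but the sources used here do not give their normalization. Labels describe 1-colour labelled cRNA. Values reported are processed signals on the log2 scale, from which the array's own 75th percentile was subtracted (100.2 on the WT array, 89.2 on the other). Of 43020 non-control spots, 321 with an outlier mark on either array were left out; repeated spots were averaged by probe. Gene names came through RefSeq transcripts of GRCm38.p6 (names only), and the probe with the highest mean value stood for a gene. Where 1 array was not well above background, its value was set to the higher of its own and the lowest value well above background there, giving a lower bound. Medians and counts used Python 3.11.15; normalizations used limma 3.58.1. Alternatives were other scalings, a background correction, the values of the authors, other filters and probe choices, and other fold limits. The number of arrays limits precision. The gene step was tested on simulated data with the spot error as the only noise, for probes well above background on both arrays. That simulation cannot show how often calls arise from differences between pools. Full values are given for genes at least 2-fold apart, genes at least 1.5-fold apart and well above background on both arrays, genes with several spots, and Tlr4, Tlr7, Tlr9, Myd88, Cd14 and Ly96. Members and lists were chosen with earlier results of these data known.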

Additional observations from a re-analysis of the deposited data

How the results depend on the processing

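Counts of genes at least 2-fold apart moved with the size rule by construction. For the 2 higher and 4 lower pattern recognition genes, 10 were lower at 1.5-fold, and 0 were higher and 2 lower at 3-fold. For the 2 higher and 4 lower partners, 5 and 8 passed at 1.5-fold and 1 and 0 at 3-fold. For all genes (490 higher, 871 lower), 1804 and 2164 passed at 1.5-fold and 103 and 374 at 3-fold. Without scaling 1 pattern recognition gene was higher, 7 partners were lower and 303 of all genes were higher. The planned normexp on mean signals was not run, as the files used here hold no such column; after normexp on median signals, chosen after seeing the data, 0 pattern recognition genes were higher and 2 lower, and 102 of all genes were higher and 579 lower. With no filter on dim probes 8 partners were lower, and 874 of all genes were higher and 1647 lower. With both arrays required to be well above background, 1 pattern recognition gene was higher, since Irak3 left the set. The second brightest measured probe exists for few genes and gave 0 pattern recognition genes and 0 partners in either direction, and 94 higher and 97 lower of all genes. The median of the pattern recognition genes, -0.17, ranged from -0.34 without scaling to -0.03 after cyclic loess, and that of the partners from -0.37 to -0.05. None of the 6 pattern recognition genes at least 2-fold apart changed sign under the alternatives run on them, which leave out the second brightest probe, since none of the 6 has a second measured probe. Causes were not tested. No paired analysis was possible because each genotype has 1 array.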
